A study of Mus musculus with 6 samples.

Results

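Transcripts of myelin and of the oligodendrocyte lineage, measured in microglia sorted from mouse spinal cord, are described here for 33 genes chosen by name. Of these genes 31 had at least 1 probe set (a group of short probes on the array) that the annotation table assigns to that symbol alone, out of 18193 genes measured in this way. *Trf* shares its probe set with another symbol and *Enpp2* has no probe set under its name in the table, so neither is analysed here. The samples are 3 SOD1 G93A arrays and 3 WT arrays, all of male mice at 90 days of age. SOD1 G93A mice bear on a B6SJL background a high-copy transgene of human SOD1, mutated as in familial amyotrophic lateral sclerosis (ALS), and WT mice are their littermates without it. CD11b-positive cells of 6 or more pooled lumbar cords gave the RNA of an array, so p-values measure the spread between pools. The cells had been spun through sucrose to take off myelin, and dead cells and debris were gated out. Values are log2 signals, in which a difference of 1 is a doubling, and each gene is given by its probe set of highest mean.

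Oligodendrocytes wrap axons of the central nervous system in myelin, a stack of lipid-rich membrane held together by a few abundant proteins. Their progenitors carry the receptor encoded by *Pdgfra* and the proteoglycan NG2 encoded by *Cspg4*, and the transcription factors OLIG1, OLIG2 and SOX10 act along the lineage. *Mbp* mRNA is carried into the oligodendrocyte processes and is translated beside the growing membrane. Microglia are phagocytic cells of another lineage and take up myelin debris, and these 33 genes are not part of the usual microglial signature.

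The sort marker *Itgam*, which encodes CD11b, had log2 signals from 8.66 to 8.74 in SOD1 G93A and from 8.404 to 8.996 in WT arrays. The microglial receptor gene *Cx3cr1* lay between 13.5 and 13.7 on all 6 arrays. Of 15 microglia markers 0 were lower in SOD1 G93A microglia and 3 were higher, beside 2.53% and 4.09% of all genes. The median log2 signal of an array lay between 5.93 and 5.97. The *Gapdh* log2 signal at the 3' end less that at the 5' end, a measure of RNA or copy length, ranged from 3.47 to 4.63 in SOD1 G93A and from 4.79 to 5.01 in WT arrays, without overlap. For beta-actin the same measure overlapped, with 1.92 to 3.36 in SOD1 G93A and 2.90 to 3.88 in WT arrays.

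*Mobp*, *Bcas1*, *Prr18* and *Mbp* were lower in SOD1 G93A microglia, *Cspg4* was higher, and the 26 other measured genes did not pass the test (limma, Benjamini-Hochberg adjusted p under 0.05 over all 18193 genes). These 5 genes of 31 stand beside 6.63% of all genes called in either direction. The 4 lower genes are 12.9% of the 31, beside 2.53% of all genes, and the 1 higher gene is 3.23%, beside 4.09%. The fold change was below 0 in 27 of the 31 genes, whereas 45.6% of all genes lay below 0. The median log2 fold change of the 31 was -0.25, beside 0.02 for all genes. Signals of SOD1 G93A and WT arrays did not overlap in 11 genes, 9 with SOD1 G93A lower (29% of the 31, beside 10.9% of all genes) and 2 with SOD1 G93A higher (6.45%, beside 16.6%). At an unadjusted p under 0.05, 10 genes were lower (8.86% of all genes were) and 1 was higher (12.7%). At the fold threshold of the study's methods, 0.81 on the log2 scale, with an unadjusted p under 0.05, 6 were lower and 1 was higher, beside 1.54% of all genes in each direction. The source of these transcripts in the sorted cells was not tested. Fewer oligodendrocytes or fragments of them and less of their RNA per cell cannot be told apart in such cells. The genes were chosen with results of these arrays known, so these shares are descriptions and no list test was made.

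**Figure D1:**
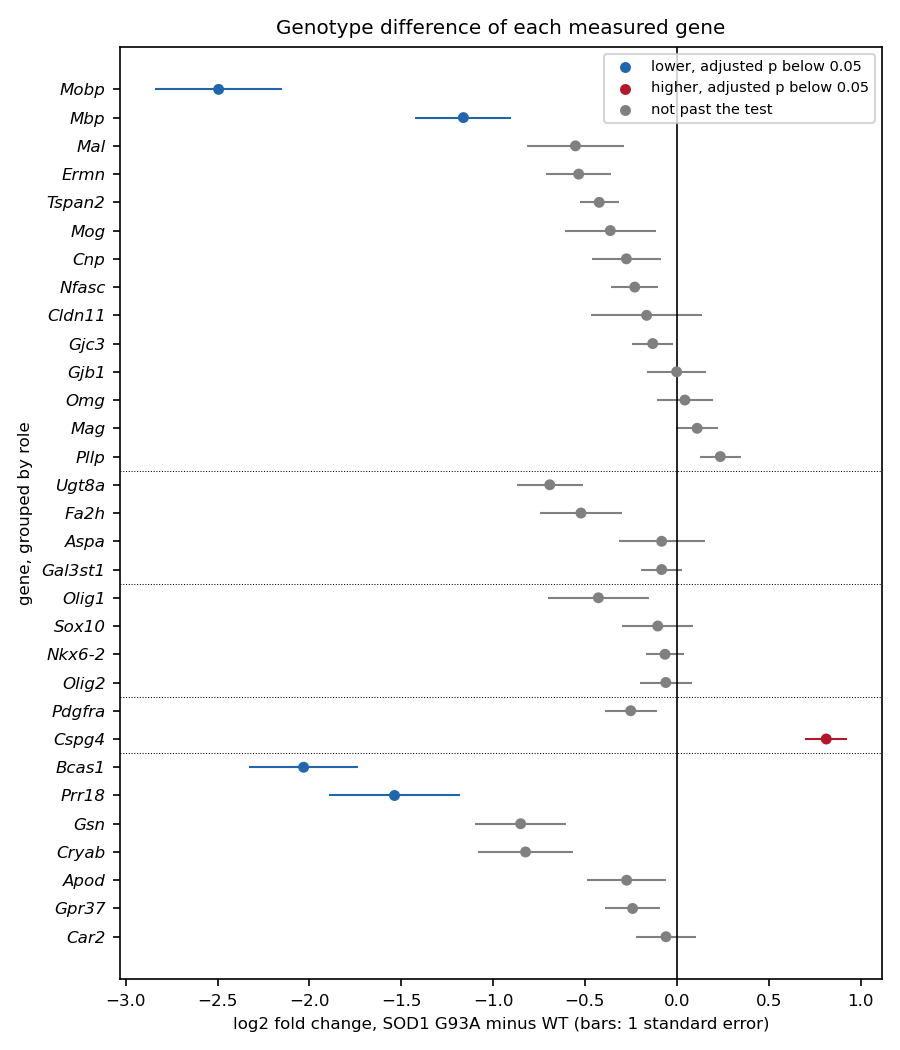
Log2 fold change (SOD1 G93A minus WT, horizontal axis) of the 31 measured genes, with bars of 1 standard error from limma, grouped from top to bottom as myelin proteins, lipid and acetate enzymes, transcription factors, progenitor surface proteins and other genes. The 4 genes in blue (*Mobp*, *Bcas1*, *Prr18*, *Mbp*) and *Cspg4* in red had an adjusted p under 0.05, and the transcription factors lie between -0.43 and -0.06.

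*Mobp* encodes myelin-associated oligodendrocytic basic protein, a small positively charged protein of compact myelin. Its log2 signals were 8.75, 9.32 and 8.11 in SOD1 G93A replicates 1 to 3 and 10.52, 11.66 and 11.48 in WT replicates 1 to 3. Every SOD1 G93A array lay below every WT array, by more than 1 log2 unit at the closest pair. The means were 8.73 ± 0.60 (SD, n = 3) and 11.22 ± 0.61 (SD, n = 3), which differ by -2.49 (standard error 0.35, limma's adjusted p = 0.006), or 5.63-fold. *Mobp* passed the test with each array left out in turn (adjusted p from 0.00185 to 0.0343), and so did *Bcas1* (7.11e-04 to 0.0386). Of its 4 other probe sets, 1 fell by 1.97 on the log2 scale (adjusted p = 0.0471 over all probe sets), and -0.60, -0.064 and -0.065 did not pass.

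*Bcas1* is a marker of oligodendrocytes that have begun to form myelin. Its signals were 9.02, 9.64 and 9.26 in SOD1 G93A and 10.59, 11.79 and 11.64 in WT arrays, again without overlap. The difference was -2.03 (standard error 0.30, adjusted p = 0.00714), or 4.09-fold. Its 2 other probe sets had signals near 6 on every array and log2 fold changes of -0.053 and -0.046.

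*Prr18* encodes a proline-rich protein. Its signals were 7.44, 7.91 and 7.76 in SOD1 G93A and 8.30, 9.95 and 9.47 in WT arrays. WT replicate 1 lay closer to the SOD1 G93A arrays than to the other WT arrays, and the WT SD was 0.85. The difference was -1.54 (standard error 0.36, adjusted p = 0.0392), and the other probe set had -1.14 (adjusted p = 0.0116 over all probe sets).

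*Mbp* encodes myelin basic protein, which holds the inner faces of the myelin membrane together. Its signals were 12.07, 12.58 and 12.50 in SOD1 G93A and 12.90, 13.92 and 13.81 in WT arrays. The means of 12.38 ± 0.28 (SD, n = 3) and 13.54 ± 0.56 (SD, n = 3) differ by -1.16 (standard error 0.26, adjusted p = 0.0346), or 2.24-fold. The 2 highest WT signals lie within 1 log2 unit of the highest signal of any array (14.59), close to the top of the scale. All 7 other *Mbp* probe sets had log2 fold changes below 0, from -1.79 to -0.097, and 4 of them passed the test over all probe sets. One that passed stayed far from the top of the scale, with means of 6.87 in SOD1 G93A and 7.43 in WT and a difference of -0.56 (adjusted p = 0.0303). *Mbp* and *Prr18* each passed with WT replicate 1 left out (adjusted p = 0.00286 and 0.0015). They did not pass with any other array left out, where the adjusted p reached 0.125 for *Mbp* and 0.136 for *Prr18*, both without WT replicate 3.

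**Figure D2:**
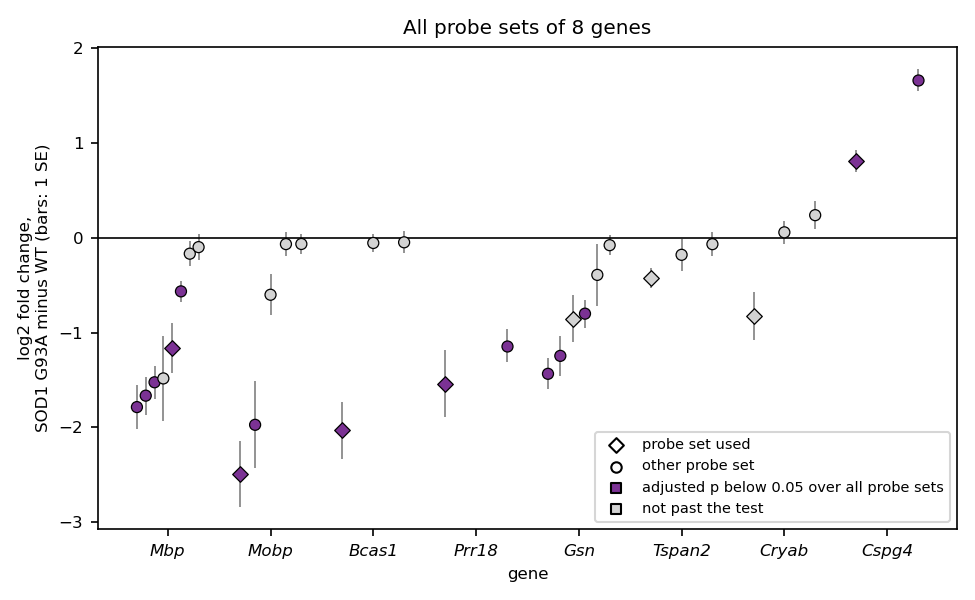
Log2 fold change (SOD1 G93A minus WT, vertical axis, bars of 1 standard error) of every probe set of 8 genes. Diamonds mark the probe set of highest mean, purple marks an adjusted p under 0.05 over all probe sets, and *Mobp*, *Bcas1* and *Cryab* show probe sets near 0 beside 1 or more far from it, whereas both *Cspg4* probe sets lie above 0.

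The upstream letters of *Mobp*, of both annotated starts of *Prr18* and of *Cspg4* are shown because these genes passed the test and have an entry in the RefSeq promoter table, and *Sox10* is itself among the 31 genes. Capitals mark ACAAAG or ACAATG on either strand, the core letters of sites of SOX factors. The lines give the 250 bases before the start on the plus strand of GRCm38.p6, 5′ to 3′.
*Mobp*, chr9:120149492-120149741: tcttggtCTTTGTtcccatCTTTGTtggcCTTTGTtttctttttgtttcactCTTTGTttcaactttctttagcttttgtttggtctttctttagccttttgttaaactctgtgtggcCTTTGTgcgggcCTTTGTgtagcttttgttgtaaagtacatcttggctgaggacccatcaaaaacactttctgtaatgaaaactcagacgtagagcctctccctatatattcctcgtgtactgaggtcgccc
*Prr18*, chr17:8340156-8340405: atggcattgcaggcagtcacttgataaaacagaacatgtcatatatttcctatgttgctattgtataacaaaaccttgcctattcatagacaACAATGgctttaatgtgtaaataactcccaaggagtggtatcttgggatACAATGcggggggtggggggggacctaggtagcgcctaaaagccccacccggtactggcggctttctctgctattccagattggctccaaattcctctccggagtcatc
*Prr18*, chr17:8340489-8340738: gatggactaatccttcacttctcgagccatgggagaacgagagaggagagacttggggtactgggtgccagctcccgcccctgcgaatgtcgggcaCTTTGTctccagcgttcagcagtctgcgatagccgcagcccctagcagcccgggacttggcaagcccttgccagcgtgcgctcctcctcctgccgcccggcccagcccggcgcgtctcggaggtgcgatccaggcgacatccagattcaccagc
*Cspg4*, chr9:56864854-56865103: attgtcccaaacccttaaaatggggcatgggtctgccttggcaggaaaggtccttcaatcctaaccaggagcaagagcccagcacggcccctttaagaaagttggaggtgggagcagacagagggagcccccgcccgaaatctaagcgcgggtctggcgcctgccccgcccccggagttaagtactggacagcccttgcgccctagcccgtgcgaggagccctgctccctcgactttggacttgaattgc
In windows of 300 bases (250 before and 50 after the start), *Mobp* held 6 matches, all of them CTTTGT, the other strand of ACAAAG. The 2 *Prr18* windows held 2 and 1, and *Cspg4* held 0. The table had 35 windows for 23 of the 31 genes, and 14 windows (40%) held a match, beside 28.6% of all 32851 windows in the table. Windows of 1 gene can overlap and share a match, as in *Gal3st1* and *Mag*. By gene, 10 of the 23 held a match in at least 1 window, beside 8572 of all 27025 genes in the table. A match is a string of letters and not a bound site, and *Bcas1* and *Mbp* have no entry.

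The remaining myelin membrane and cytoskeletal proteins moved less. *Tspan2*, which encodes a tetraspanin of oligodendrocytes, lay just outside the threshold. Its signals were 6.89, 6.93 and 6.94 in SOD1 G93A and 7.21, 7.43 and 7.38 in WT arrays, with no overlap, and differed by -0.42 (standard error 0.11, adjusted p = 0.0502). *Mog*, which encodes a glycoprotein on the outer face of myelin, had 5.63, 4.98 and 5.29 in SOD1 G93A and 6.23, 5.38 and 5.38 in WT arrays. The genotypes overlapped, and its difference of -0.36 (standard error 0.25, adjusted p = 0.461) was smaller than the WT SD of 0.49. Without WT replicate 1 it was -0.080. *Cnp*, which encodes a phosphodiesterase of non-compact myelin, had -0.27 (standard error 0.19, adjusted p = 0.461), and its 2 other probe sets had 0.14 and 0.047. *Mal*, of a proteolipid of myelin rafts, had -0.55, and *Ermn*, of an actin-linked protein, had -0.53, with adjusted p of 0.27 and 0.118. *Nfasc*, which encodes neurofascin of the paranode and node, had -0.23 and *Cldn11*, the tight junction claudin of myelin, had -0.16. *Mag*, an adhesion molecule that faces the axon, had 0.11, and *Omg* had 0.04. *Pllp*, which encodes plasmolipin, was above all WT arrays in all SOD1 G93A arrays, and differed by 0.24 (standard error 0.11, adjusted p = 0.27). The connexin genes *Gjb1* and *Gjc3* had -0.001 and -0.13. Of the 14 genes of this role 2 fell and 12 did not pass.

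None of the 4 measured enzymes of myelin lipid and acetate metabolism passed the test, and all 4 lay below 0. *Ugt8a*, which encodes the enzyme that makes galactosylceramide, came closest. Its signals were 7.06, 6.86 and 6.39 in SOD1 G93A and 7.63, 7.48 and 7.27 in WT arrays, without overlap, a difference of -0.69 (standard error 0.18, adjusted p = 0.0554). *Fa2h*, which encodes the fatty acid 2-hydroxylase of myelin lipids, had -0.52 (standard error 0.22, adjusted p = 0.217). *Gal3st1*, of sulfatide synthesis, had -0.082 and *Aspa*, which splits N-acetylaspartate, had -0.083.

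The 4 lineage transcription factors did not pass either. *Sox10* had signals of 7.65, 7.46 and 7.27 in SOD1 G93A and 8.01, 7.33 and 7.35 in WT arrays, a difference of -0.10 (standard error 0.19, adjusted p = 0.819). Without WT replicate 1, the highest of the 6 arrays, it was 0.12. *Olig1* had -0.43 (standard error 0.27, adjusted p = 0.425), *Olig2* had -0.06 and *Nkx6-2* had -0.06. The mean signal of *Olig2* lies below 5, close to background, the only one of the 31 genes to do so.

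*Cspg4* was the 1 gene that rose. Its signals were 7.745, 7.677 and 7.988 in SOD1 G93A and 7.013, 7.001 and 6.956 in WT arrays, so the lowest SOD1 G93A array lay well above the highest WT array. The means of 7.80 ± 0.16 (SD, n = 3) and 6.99 ± 0.03 (SD, n = 3) differ by 0.81 (standard error 0.12, adjusted p = 0.00625), or 1.76-fold. The other probe set rose from signals of 5.47, 5.46 and 5.37 in WT to 6.96, 7.28 and 7.06 in SOD1 G93A arrays, by 1.67 (adjusted p = 5.16e-04 over all probe sets). *Pdgfra*, the other progenitor gene, had 5.05, 5.33 and 4.92 in SOD1 G93A and 5.51, 5.37 and 5.17 in WT arrays. Its difference of -0.25 (standard error 0.14, adjusted p = 0.356) had the opposite sign, and its arrays overlapped. *Cspg4* is also a gene of pericytes. Of 17 endothelial and mural markers 0 were lower and 1, the endothelial receptor gene *Flt1* (0.87), was higher, beside 2.53% and 4.09% of all genes. The summed linear signal of the 17 was 1988 to 2335 in SOD1 G93A and 2161 to 2357 in WT arrays. The mural genes *Rgs5* (-0.43), *Acta2* (-0.37), *Pdgfrb* (0.01), *Kcnj8* (0.12) and *Myh11* (0.38), named after their values were seen, did not pass the test. The part of mural cells in the rise of *Cspg4* was not tested.

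Of 7 other oligodendrocyte-rich genes, *Bcas1* and *Prr18* fell and all 7 lay below 0, with a median of -0.82. *Gsn*, which encodes the actin-severing protein gelsolin made by many cell types, had 8.43, 9.32 and 9.06 in SOD1 G93A and 9.37, 10.06 and 9.94 in WT arrays. The difference of -0.85 (standard error 0.25, adjusted p = 0.0788) did not pass by this probe set, while 3 of its 5 other probe sets did, the farthest at -1.43 (adjusted p = 0.00391 over all probe sets). *Cryab*, which encodes the small heat shock protein alpha-B-crystallin, had 9.02, 8.74 and 8.28 in SOD1 G93A and 10.04, 9.42 and 9.07 in WT arrays. Its difference was -0.82 (standard error 0.26, adjusted p = 0.0988), and its 2 other probe sets, at signals between 3.81 and 6.05, had 0.059 and 0.24. The apolipoprotein gene *Apod* had -0.27, the receptor gene *Gpr37* had -0.24 and the carbonic anhydrase gene *Car2* had -0.059, none past the test.

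**Figure D3:**
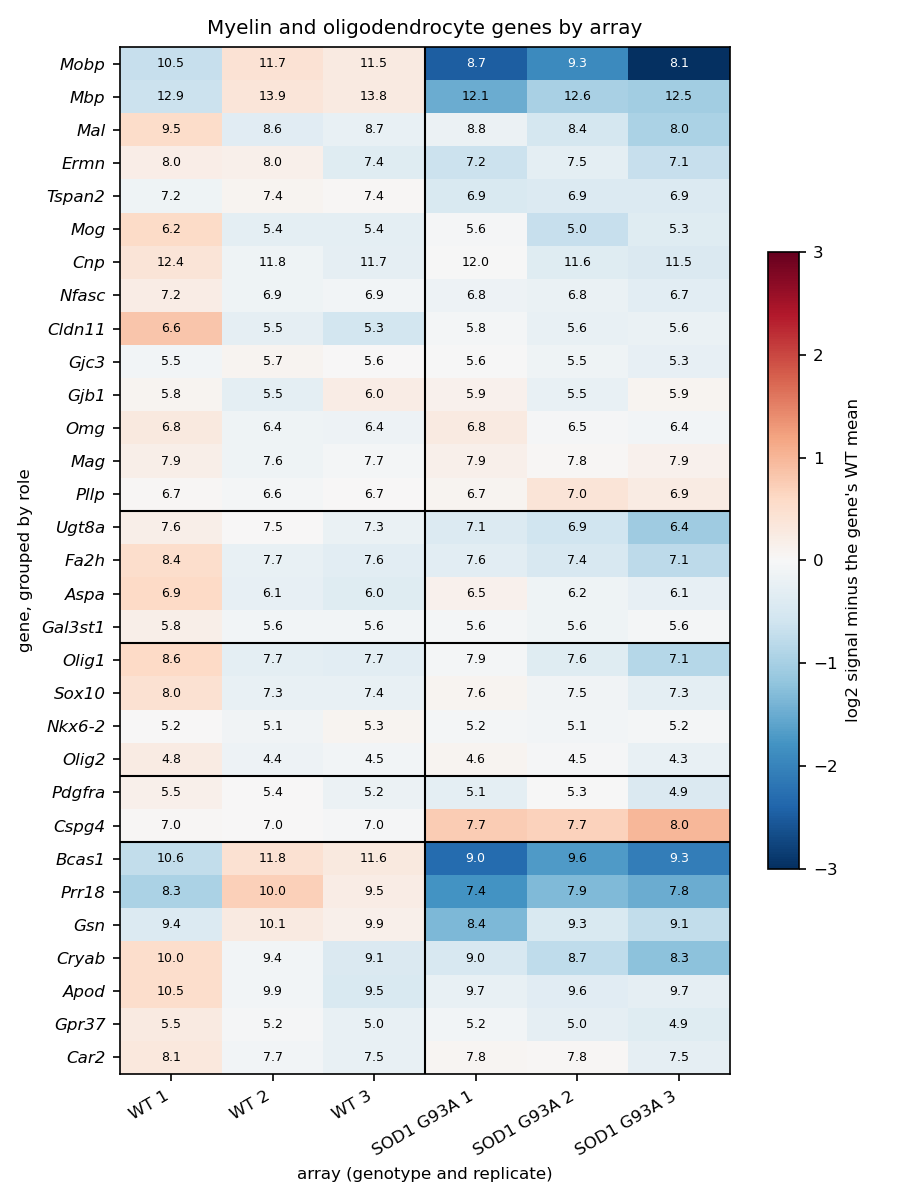
Log2 signal of each measured gene (rows, grouped by role) on each array (columns), printed in the cells and coloured by its difference from the gene's WT mean. WT replicate 1 lies above the WT mean (red) in most rows and below it (blue) in 7, those of *Mobp*, *Mbp*, *Bcas1*, *Prr18* and *Gsn* and, more palely, *Tspan2* and *Gjc3*.

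The genes that fell and most of the genes that did not differed in which WT array was high. In 20 of the 31 genes (64.5%, beside 20.6% of all genes) WT replicate 1 had the highest signal of all 6 arrays, among them *Mog*, *Cnp*, *Mal*, *Cldn11*, *Fa2h*, *Aspa*, *Sox10*, *Olig1* and *Olig2*. For *Mobp*, *Mbp*, *Bcas1* and *Prr18* it was the lowest of the WT arrays, and its signal minus the mean of the other WT arrays was -1.05, -0.97, -1.12 and -1.42. Within SOD1 G93A microglia the arrays numbered alike showed a similar order. Replicate 1 lay above both others in both genotypes for 18 genes (58.1%, beside 23.8% of all genes), and below both others in both genotypes for 5 (16.1%, beside 15.1%). The 5 are *Mbp*, *Bcas1*, *Prr18*, *Gsn* and *Tspan2*, while *Mobp* was lowest in WT replicate 1 but in SOD1 G93A replicate 3. Of the 18 genes 0 passed the genotype test, and their median log2 fold change was -0.23. Among the 4338 of all genes in that order, 97 were called lower and the median was 0.011, so few calls would be looked for in 18 genes. These sets were formed after the values were seen and carry no test. SOD1 G93A replicate 3 had the lowest signal of the 6 arrays in 15 genes (48.4%, beside 17.5% of all genes). The members' median SD between WT arrays was 0.32, against 0.137 for all genes.

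**Figure D4:**
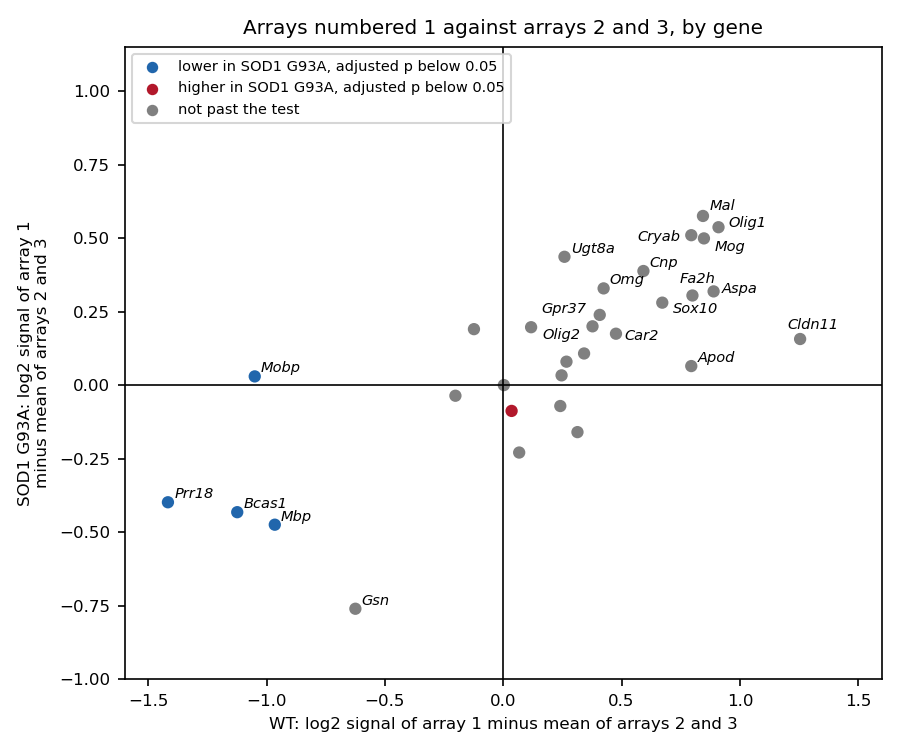
For each of the 31 genes, the log2 signal of array 1 minus the mean of arrays 2 and 3, in WT (horizontal axis) and in SOD1 G93A (vertical axis). Most genes lie up and to the right, and the 4 genes that were lower in SOD1 G93A (blue) lie to the left, from -0.97 to -1.42 on the WT axis.

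Some markers of other cells were also lower in SOD1 G93A microglia, and the counts below stand beside 2.53% of all genes lower and 4.09% higher. Of 12 measured neutrophil and monocyte markers, 11 had replicate 1 below both others in both genotypes, the order seen for *Mbp*, *Bcas1* and *Prr18*. Of these 12, 4 were lower and 0 higher in SOD1 G93A microglia, with a median log2 fold change of -0.74. The 4 lower genes were *Ccr2* (-1.22), *S100a6* (-1.11), *S100a4* (-1.09) and *Plac8* (-1.04). The summed linear signal of the 12 was 57927 to 85053 in SOD1 G93A and 76344 to 124986 in WT arrays. *S100a8* and *S100a9* had signals of 13.83 or more on every array, and neither passed the test (-0.34 and -0.38, adjusted p = 0.117 and 0.2). Of 15 astrocyte markers, 10 had replicate 1 above both others in both genotypes, the order seen for *Mog* and *Sox10*. Of these 15, 5 were lower and 0 higher, with a median of -0.65 and a summed signal of 7381 to 8372 in SOD1 G93A and 10536 to 14318 in WT arrays. The fold change was below 0 in 13 of the 15. *Gfap*, *Aqp4*, *Slc1a2* and *Slc1a3* had 0.33, -1.08, -1.5997 and -0.65 (adjusted p = 0.377, 0.171, 0.0119 and 0.0133). Of 18 neurone markers, 2 had replicate 1 above and 1 had it below both others in both genotypes. Of these 18, 6 were lower and 1 was higher, with a median of -0.29 and a sum of 925 to 1076 in SOD1 G93A and 1694 to 1908 in WT arrays. *Nefl*, *Nefm*, *Nefh* and *Snap25* had -2.20, -0.90, -0.90 and -1.05 (adjusted p = 0.00186, 0.00745, 0.00918 and 0.0737). The WT mean signal was 8.83 for *Nefl*, 5.30 for *Nefm* and 5.70 for *Nefh*. In SOD1 G93A the means were 6.62 for *Nefl*, and 4.40 for *Nefm* and 4.80 for *Nefh*, both below 5 and close to background. *Snap25* lay below 5 in all 3 SOD1 G93A arrays and in 2 of 3 WT arrays. The 31 myelin and oligodendrocyte genes had a sum of 13948 to 15481 in SOD1 G93A and 23325 to 32416 in WT arrays, weighted towards the brightest probe sets. The part of these other cells in the fall of *Mobp*, *Bcas1*, *Prr18* and *Mbp* was not tested. Once this *Gapdh* end difference was added to the fit, 0 of the 31 genes passed in either direction, beside 94 of all genes. At an unadjusted p under 0.05, 6 were lower and 1 was higher, but the share of all genes at that level was not counted in this fit. In that fit *Mobp* had -2.11, *Bcas1* -2.25, *Prr18* -1.88 and *Mbp* -1.51 (adjusted p = 0.117, 0.0725, 0.16 and 0.122), whereas the median of the 31 genes was -0.055 and 17 of them lay below 0. The end difference did not overlap between genotypes, so this fit cannot fully separate it from genotype. The standard error of *Mobp* rose from 0.35 to 0.50 in it.

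Of 45 further genes of the lineage, 8 were lower, 2 were higher and 35 did not pass, with a median log2 fold change of -0.097. Over all genes 2.53% were lower and 4.09% were higher. The falls were *Plekhb1* (-1.43), *Elovl7* (-1.22), *Lpar1* (-1.06), *Tcf7l2* (-1.06), *Ndrg1* (-0.99), *S1pr5* (-0.85), *Cemip2* (-0.64) and *Qdpr* (-0.48). *Plekhb1*, which encodes a pleckstrin-domain protein, had signals of 9.17, 9.52 and 9.26 in SOD1 G93A and 9.94, 11.32 and 10.99 in WT arrays, the order of arrays found for *Prr18*. *Ndrg1*, whose product is needed for peripheral myelin, had 8.72, 8.92 and 8.69 in SOD1 G93A and 9.80, 9.74 and 9.76 in WT arrays, with no such step in WT replicate 1. *Slc44a1*, a choline transporter gene (0.84), and the kinase gene *Fyn* (0.48) were higher. *Myrf*, the transcription factor that drives myelin genes, had 7.09, 7.08 and 6.86 in SOD1 G93A and 7.67, 6.87 and 6.96 in WT arrays, a difference of -0.15 (standard error 0.20, adjusted p = 0.736). Among 8 genes of peripheral myelin and Schwann cells, *Pmp22* rose by 0.54 (adjusted p = 0.0289) and the 7 others did not pass. The median of all 8 was 0.002. Several of these genes are also active outside oligodendrocytes, *Tcf7l2*, *Fyn* and *Pmp22* among them.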

How the data were processed

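RNA of CD11b-positive lumbar cells was hybridised to Affymetrix mouse arrays, 3 per genotype. The authors deposited 1 log2 signal for every probe set and array. The submitters' notes name RMA and Partek without versions, whereas the paper's methods name MAS signals and detection calls, not used here. All 45037 probe sets other than 64 controls were fitted with limma 3.58.1 (lmFit, eBayes) under R 4.3.3, genotype being the only term. Each of 18193 symbols took the probe set of highest mean among those with that symbol alone, and p-values were Benjamini-Hochberg adjusted over these genes, or over all probe sets for other probe sets. The members, lists, tests and alternatives were chosen with earlier results of these data known. Genes given in full were those with an adjusted p under 0.05, those past the methods' fold (0.81 on the log2 scale) with an unadjusted p under 0.05, and *Mbp*, *Mog*, *Sox10*, *Pdgfra* and *Cspg4*; of further lineage genes those past the test and *Myrf*, and of other lists some of the first 4. *Tspan2*, *Ugt8a* and the neutrophil and monocyte genes past the test were added after their values were seen. Listed genes without a probe set of their own are not analysed here. Precision is limited by the number of arrays. Promoters come from RefSeq (GRCm38.p6). Alternatives were the methods' t-test, eBayes with trend and robust, another choice of probe set, genes with a mean signal of at least 5 or 7, median-centred or quantile-normalized arrays, array weights, a *Gapdh* covariate, a replicate block, and arrays left out. Python 3.11.15, pandas 2.3.3 and matplotlib 3.10.9 served for sequences and figures.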

Additional observations from a re-analysis of the deposited data

How the results depend on the processing

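With 1 array left out in turn, the number of the 31 genes lower in SOD1 G93A at an adjusted p under 0.05 ranged from 2 to 6 (reported 4, and 2 without SOD1 G93A replicate 2 or 3 or WT replicate 2 or 3), and 1 was higher each time. At the methods' fold 5 to 6 were lower (reported 6) and 0 to 1 higher (reported 1), and the median log2 fold change ranged from -0.40 to -0.10 (reported -0.25). The methods' t-test gave 0 lower and 0 higher after adjustment, 2 lower at the methods' fold (*Mobp* and *Bcas1*), and 0 of all 18193 genes after adjustment. At an unadjusted p under 0.05 it gave 3 of the 31 lower and 1 higher, but the share of all genes at that level was not counted. The *Gapdh* covariate gave 0 lower and 0 higher, 0 higher at the methods' fold and a median of -0.055. A minimum mean signal of 7 left 18 of the genes, with 7 lower and a median of -0.53, while 1357 of 7971 genes passed in either direction. Array weights gave 7 lower and 1 higher after adjustment, beside 1819 of all 18193 genes in either direction. At the methods' fold they gave 4 lower and 0 higher. The mean of all probe sets gave 3 lower at the methods' fold. Without both arrays numbered 1, 8 were lower, beside 1842 of all genes called in either direction. The reported fit called 1206 of all genes. With the replicate number as a block 11 were lower, adding *Mal*, *Tspan2*, *Ermn*, *Ugt8a*, *Fa2h*, *Gsn* and *Cryab*, and 2221 of all genes passed against 1206. Deviations from the group means correlated by 0.44, 0.24 and 0.029 between arrays numbered 1, 2 and 3 over all probe sets. There SOD1 G93A replicate 3 correlated best with WT replicate 2 (0.40). Over the 31 genes alone the values were 0.77, 0.73 and 0.32. There each SOD1 G93A array correlated best with its own number, but WT replicate 3 did so with SOD1 G93A replicate 2 (0.42). The paper states that groups were matched by litter. The labels tie no number to a litter, so the numbers were not taken as pairs. *Sox10*, which did not pass in any setting, changed sign to 0.017 with the mean of all probe sets, 0.21 with the *Gapdh* covariate, 0.027 without both arrays numbered 1 and 0.12 without WT replicate 1, ranging from -0.22 to 0.12 with 1 array left out, and *Cryab* to 0.24 without suffixed probe sets. The cause was not tested. *Mobp*, *Bcas1*, *Prr18*, *Mbp* and *Cspg4* kept their direction in all 13 other settings and with each array left out. *Mobp*, *Bcas1*, *Prr18* and *Cspg4* passed in 11 of the 13, all but the methods' t-test and the *Gapdh* covariate, and *Mbp* in 10, failing also with the probe set of largest variance (adjusted p = 0.0685).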
